A study of Mus musculus with 8 samples.

Results

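E2F transcription factors and their DP partners were followed on 8 microarrays of whole skin, taken from newborn mice of the inbred FVB strain. The members were E2f1 to E2f8, Tfdp1 and Tfdp2, and every probe set of the deposited table whose single gene symbol was one of these 10 genes was kept. This gave 9 probe sets of 7 genes, out of 22690 probe sets and 12394 singly named genes: E2f1 and E2f5 with 2 probe sets each, and E2f3, E2f4, E2f6, E2f8 and Tfdp1 with 1 each. E2f2, E2f7 and Tfdp2 were not analysed here. The 4 genotypes were control, pRb-/-;p53+/+ (pRb_null below), pRb+/+;p53-/- (p53_null) and pRb-/-;p53-/- (double_null). The series title places the loss of Rb1 and Trp53, the genes of pRb and p53, in stratified epithelia as a somatic event. The sources used here give neither the driver of that loss nor the alleles of the control mice. Each genotype had 2 arrays, and each array carried RNA pooled from 3 animals. Whether both arrays of a genotype came from separate pools is not stated, and p-values therefore reflect only how far these arrays lie apart, a spread that may be technical.

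E2F proteins bind DNA mostly as heterodimers with a DP protein and control genes of DNA replication and cell division. E2F1, E2F2 and E2F3 are classed as activators, and pRb binds them and masks their activation domain until cyclin-dependent kinases phosphorylate it. E2F4 and E2F5 are classed as repressors and act mainly with the pRb relatives p107 and p130, E2F6 represses with Polycomb-type complexes without pocket proteins, and E2F7 and E2F8 repress without DP. In the epidermis pRb restrains the proliferation of keratinocytes as they leave the basal layer and differentiate.

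The deposited value of a probe set was standardized over the 8 arrays to mean 0 and SD 1. This score places an array relative to the other arrays for that probe set. It holds no expression level, so neither fold changes nor the presence of skin markers can be given, and scores of different genes cannot be ranked by abundance. Differences below are in units of a probe set's own SD over the arrays, with the standard error (SE) from a limma fit of 1 mean per genotype. In bulk skin, fewer cells of a type and less RNA per cell cannot be told apart. The 2 arrays of a genotype resembled each other more than any other array, with r across probe sets of 0.118 to 0.337, and the highest r with an array of another genotype was 0.093. The mean score of the 64 control probe sets was -0.69 and -0.37 on the control arrays and between -0.04 and 0.61 on the other 6, and its part in the results was not tested.

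Among the members, Tfdp1, 1 probe set of E2f1 and E2f3 scored highest on the pRb_null arrays, and E2f3 and Tfdp1 had their lowest mean in double_null. E2f4 scored higher on the arrays that lacked p53 than on those that had it. None of these differences passed the test: at an adjusted p under 0.05 (Benjamini-Hochberg over all 22690 probe sets, limma's ordinary statistic) 0 of the 9 member probe sets were called in any of 8 comparisons, or in the test of any difference among the 4 genotypes. The same test called 0% of all probe sets for pRb_null against control, 0.119% for p53_null against control, 0.846% for double_null against control, 0.405% for double_null against pRb_null and 0.0353% for double_null against p53_null. It called 0.00441% for the effect of pRb loss averaged over both p53 states, 1.26% for that of p53 loss averaged over both pRb states, 0% for the interaction of both losses and 0.159% for any difference. The lowest adjusted p of a member was 0.0887, for Tfdp1 in double_null against pRb_null. limma's moderated statistic also called 0 members.

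**Figure D1:**
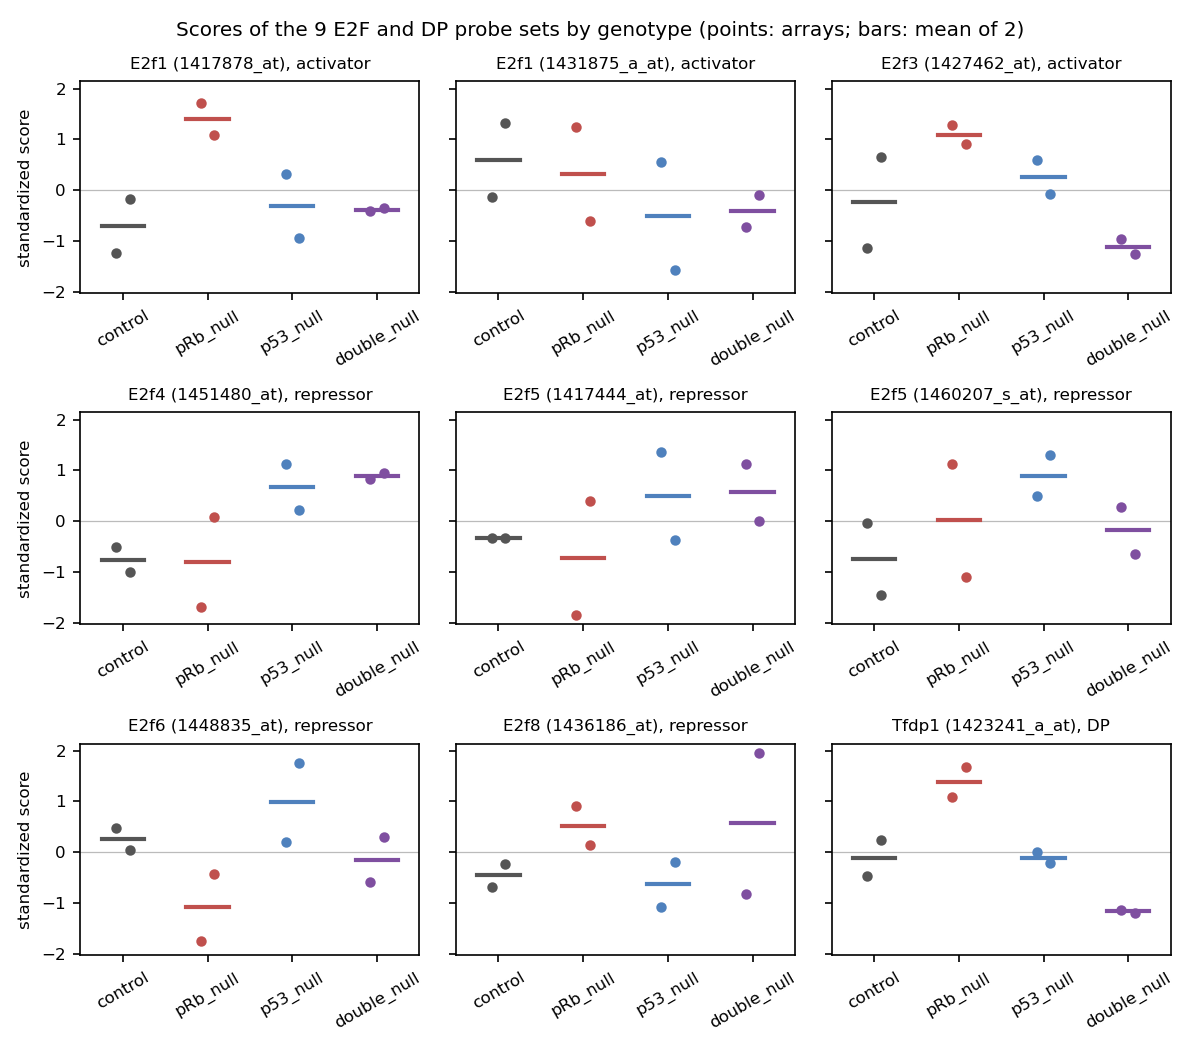
Standardized score (y axis, in SD over the 8 arrays) of the 9 E2F and DP probe sets by genotype (x axis). Points are arrays and bars are the mean of 2 arrays. Tfdp1 sits at 1.09 and 1.67 on the pRb_null arrays and at -1.13 and -1.20 on the double_null arrays, while E2f8 spans -0.81 to 1.95 within double_null.

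E2f1, the activator best known for driving S-phase entry and, when in excess, cell death, was read by 2 probe sets. On 1417878_at its scores were -1.24 and -0.17 on the control arrays, 1.72 and 1.09 on the pRb_null arrays, 0.31 and -0.95 on the p53_null arrays, and -0.41 and -0.36 on the double_null arrays. Both pRb_null arrays lay above the other 6, and those 6 overlapped. The pRb_null mean exceeded control by 2.11 ± 0.63 (SE; adjusted p = 0.400, limma). double_null minus pRb_null was -1.79 ± 0.63, with an adjusted p of 0.262. The step from pRb_null to the next genotype in order, p53_null, was 1.72, and the order of p53_null, double_null and control was within their spread.

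The second E2f1 probe set, 1431875_a_at, gave another picture. Its scores were -0.13 and 1.33 on the control arrays, 1.24 and -0.61 on the pRb_null arrays, 0.56 and -1.57 on the p53_null arrays, and -0.73 and -0.10 on the double_null arrays. The arrays of one genotype differed by up to 2.13, more than the range of 1.10 between genotype means, and no genotype stood apart. pRb_null minus control was -0.29 ± 1.14 here, so the high pRb_null value of E2f1 rests on 1 of its 2 probe sets. Over the 8 arrays the 2 probe sets had r = 0.485 (exact permutation p = 0.225, Benjamini-Hochberg 0.450 over 2 such pairs) and rho = 0.548 (exact permutation p = 0.171). Without the 2 arrays farthest from the median of the first probe set r was 0.587.

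E2f3, an activator that many cell types need in order to proliferate, was read by 1427462_at. Its scores were -1.13 and 0.65 on the control arrays, 1.28 and 0.90 on the pRb_null arrays, 0.59 and -0.07 on the p53_null arrays, and -0.97 and -1.25 on the double_null arrays. Both pRb_null arrays were the highest of all, whereas double_null overlapped with the lower control array. pRb_null minus control was 1.33 ± 0.69 (adjusted p = 0.589), and double_null minus pRb_null was -2.20 ± 0.69 (adjusted p = 0.236). The control arrays of E2f3 differed by 1.78, its largest gap within a genotype. No neighbours in the order pRb_null, p53_null, control, double_null were separated beyond their spread, with gaps of 0.83, 0.50 and 0.87.

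E2F genes are themselves known to carry E2F sites, so the promoters of the members were searched for the octamers TTTGGCGC, TTTCCCGC, TTTCGCGC and TTTGCCGC on both strands. None of these octamers contains another, and a window with several matches counted as 1. The windows came from RefSeq (GRCm38.p6) and ran from 250 bases before to 50 after a start site. A match was found in 5 of the 12 windows of 8 member genes (41.7%), which were windows of E2f2, E2f3, E2f7 and Tfdp1. The share was 2.26% of all 32851 windows and 46.7% of the 30 windows of a list of G1/S target genes of E2F. The windows of E2f3 and Tfdp1 are shown because these are the measured members that held a match. Capitals mark it, and it reads as the reverse complement of the motif (GCGGGAAA for TTTCCCGC in E2f3, first base at position -11 from the start site, and GCGCGAAA for TTTCGCGC in Tfdp1, at -43).
E2f3, chr13:29986014-29986313, minus strand: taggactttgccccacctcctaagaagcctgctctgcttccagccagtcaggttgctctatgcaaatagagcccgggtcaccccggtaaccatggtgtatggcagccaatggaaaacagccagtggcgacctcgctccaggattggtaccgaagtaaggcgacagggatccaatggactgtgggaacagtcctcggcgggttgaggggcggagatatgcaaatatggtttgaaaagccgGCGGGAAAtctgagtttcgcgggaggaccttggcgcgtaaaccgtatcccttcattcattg
Tfdp1, chr8:13338501-13338800, plus strand: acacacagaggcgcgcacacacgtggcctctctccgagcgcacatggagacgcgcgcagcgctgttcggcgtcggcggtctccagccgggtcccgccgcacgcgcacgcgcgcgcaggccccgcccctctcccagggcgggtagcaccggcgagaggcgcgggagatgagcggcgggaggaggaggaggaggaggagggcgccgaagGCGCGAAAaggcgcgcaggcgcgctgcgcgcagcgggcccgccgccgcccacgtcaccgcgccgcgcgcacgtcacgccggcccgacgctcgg
A match is a description of the letters and was not tested as a site. The 5 windows with a match include a second, overlapping Tfdp1 window with the same match, and a second E2f3 window held none. The windows of E2f1, E2f6 and E2f8 held no octamer. Those of E2f1 and E2f8 are set on start sites 466 and 477 bases inside the gene. E2f4 and E2f5 had no window and were not searched.

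Tfdp1 encodes DP1, the partner that E2F1 to E2F6 need for stable DNA binding. Its scores on 1423241_a_at were -0.46 and 0.24 on the control arrays, 1.09 and 1.67 on the pRb_null arrays, 0.00 and -0.20 on the p53_null arrays, and -1.13 and -1.20 on the double_null arrays. The pRb_null arrays were the highest and the double_null arrays the lowest, and neither overlapped with any other genotype, while control and p53_null lay between them and overlapped. The largest gap between 2 arrays of a genotype was 0.70, against a range of 2.54 between genotype means. Of the 9 probe sets it had the smallest standard error, 0.33 for a difference between genotypes. With the SD of each probe set fixed at 1, widely spread genotype means leave a small standard error, so this is no separate result.

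pRb_null exceeded control by 1.49 for Tfdp1 (adjusted p = 0.305), and double_null lay below control by a difference of -1.05 (adjusted p = 0.222). double_null minus pRb_null was -2.54 (adjusted p = 0.0887) and double_null minus p53_null was -1.06 (adjusted p = 0.373). Loss of pRb therefore went with a higher score where p53 was present and a lower one where p53 was absent, and the interaction was -2.55 ± 0.47 (adjusted p = 0.308). The test of any difference gave F = 20.2 (adjusted p = 0.145). In the order of genotype means, pRb_null lay 1.48 above p53_null, p53_null and control differed by 0.01, and control lay 1.05 above double_null, against a standard error of 0.33. None of these values passed after adjustment.

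Markers of other cells varied over the same arrays. The skeletal muscle list (8 of 8 genes measured, among them Ckm, the muscle creatine kinase) had mean scores of -1.15 and -0.34 on the control arrays, 0.84 and 1.08 on the pRb_null arrays, 0.08 and -0.07 on the p53_null arrays, and 0.08 and -0.51 on the double_null arrays. All 8 muscle genes scored higher in pRb_null than in control, 5 of them at an unadjusted p under 0.05 (5.29% of all genes), and 0 were called. The hair follicle list (11 of 12 genes) had mean scores of 0.99 and 1.03 on the control arrays, 0.52 and 0.49 on the pRb_null arrays, -0.22 and -0.15 on the p53_null arrays, and -1.57 and -1.09 on the double_null arrays. At an adjusted p under 0.05, 7 of these 11 genes fell in double_null against control, where 0.846% of all probe sets were called. Against pRb_null 4 fell (0.405%), and keratins of the hair shaft and root sheath were among them. For averaged p53 loss 7 fell (1.26%), and in double_null against p53_null 0 were called (0.0353%). However, limma's moderated statistic called 0 probe sets in any of these comparisons. Macrophage markers (8 of 8 genes) had means of 1.00 and 0.88 on the double_null arrays and between -0.55 and -0.06 on the other 6. The part of these cells in the member values was not tested.

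**Figure D2:**
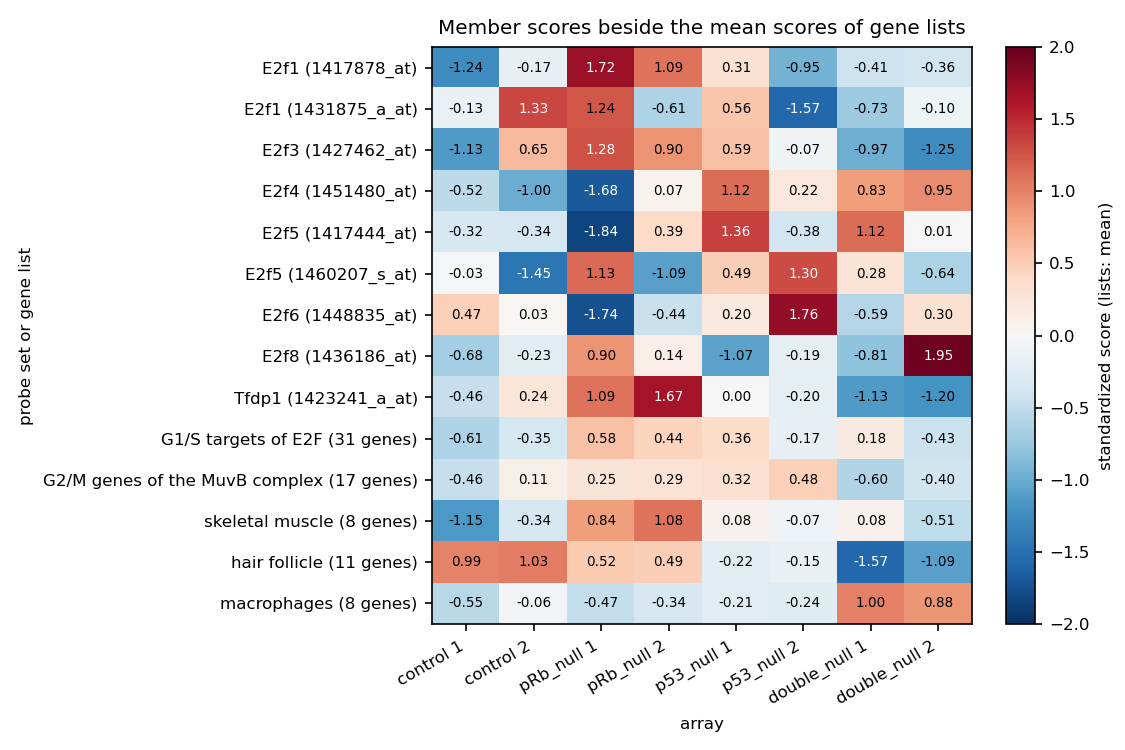
Heat map of standardized scores on the 8 arrays (columns), with the 9 member probe sets above the mean score of 5 gene lists (rows). Colour runs from -2 (blue) to 2 (red) and each cell prints its value. The pRb_null columns are red for E2f3, Tfdp1 and skeletal muscle, and the double_null columns are blue for E2f3, Tfdp1 and hair follicle.

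Among the repressors, E2f4, usually the most abundant E2F of resting and differentiated cells, had the largest averaged effect of p53 loss of the 5 probe sets. Its scores on 1451480_at were -0.52 and -1.002 on the control arrays, -1.68 and 0.07 on the pRb_null arrays, 1.12 and 0.22 on the p53_null arrays, and 0.83 and 0.95 on the double_null arrays. All 4 arrays without p53 lay above all 4 arrays with it, a separation in this direction seen for 5.89% of all probe sets, beside 8.14% in the opposite direction and 14% in all. The effect of p53 loss averaged over both pRb states was 1.56 ± 0.51 (adjusted p = 0.199). The averaged effect of pRb loss was 0.09 ± 0.51 and the interaction 0.27 ± 1.02. double_null exceeded control by 1.65 ± 0.72 (adjusted p = 0.328) and pRb_null by 1.70 (adjusted p = 0.319), and the latter was 0.82 without the first pRb_null array and 2.57 without the second.

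E2f5, which like E2f4 acts with the pRb relatives, was read by 2 probe sets with different patterns. On 1417444_at the scores were -0.32 and -0.34 on the control arrays, -1.84 and 0.39 on the pRb_null arrays, 1.36 and -0.38 on the p53_null arrays, and 1.12 and 0.01 on the double_null arrays. On 1460207_s_at they were -0.03 and -1.45 on the control arrays, 1.13 and -1.09 on the pRb_null arrays, 0.49 and 1.30 on the p53_null arrays, and 0.28 and -0.64 on the double_null arrays. On both, the pRb_null arrays lay over 2 SD apart, with gaps of 2.23, wider than the range between genotype means (1.29 and 1.63). The correlation of the 2 probe sets was r = -0.220 (exact permutation p = 0.607, Benjamini-Hochberg 0.607) and rho = -0.238 (exact permutation p = 0.582), and r was 0.005 without the 2 arrays farthest from the median.

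The averaged effect of p53 loss was nevertheless positive on both E2f5 probe sets, at 1.05 ± 0.76 and 0.72 ± 0.73, within 2 SE of 0. E2f6, the Polycomb-linked repressor, scored 0.47 and 0.03 on the control arrays, -1.74 and -0.44 on the pRb_null arrays, 0.20 and 1.76 on the p53_null arrays, and -0.59 and 0.30 on the double_null arrays on 1448835_at. Both pRb_null arrays lay below both control arrays, but 1 of them overlapped with double_null. pRb_null minus control was -1.34 ± 0.80 (adjusted p = 0.641), and the averaged effect of pRb loss was -1.23 ± 0.56 (adjusted p = 0.463).

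E2f8, an atypical repressor induced in S phase and itself an E2F target, had the widest gap between 2 arrays of a genotype among the 9 probe sets. Its scores on 1436186_at were -0.68 and -0.23 on the control arrays, 0.90 and 0.14 on the pRb_null arrays, -1.07 and -0.19 on the p53_null arrays, and -0.81 and 1.95 on the double_null arrays. Both pRb_null arrays lay above both control arrays, but the 2 double_null arrays differed by 2.76, against a range of 1.20 between genotype means. pRb_null minus control was 0.98 ± 1.07 and double_null minus control 1.03 ± 1.07.

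**Figure D3:**
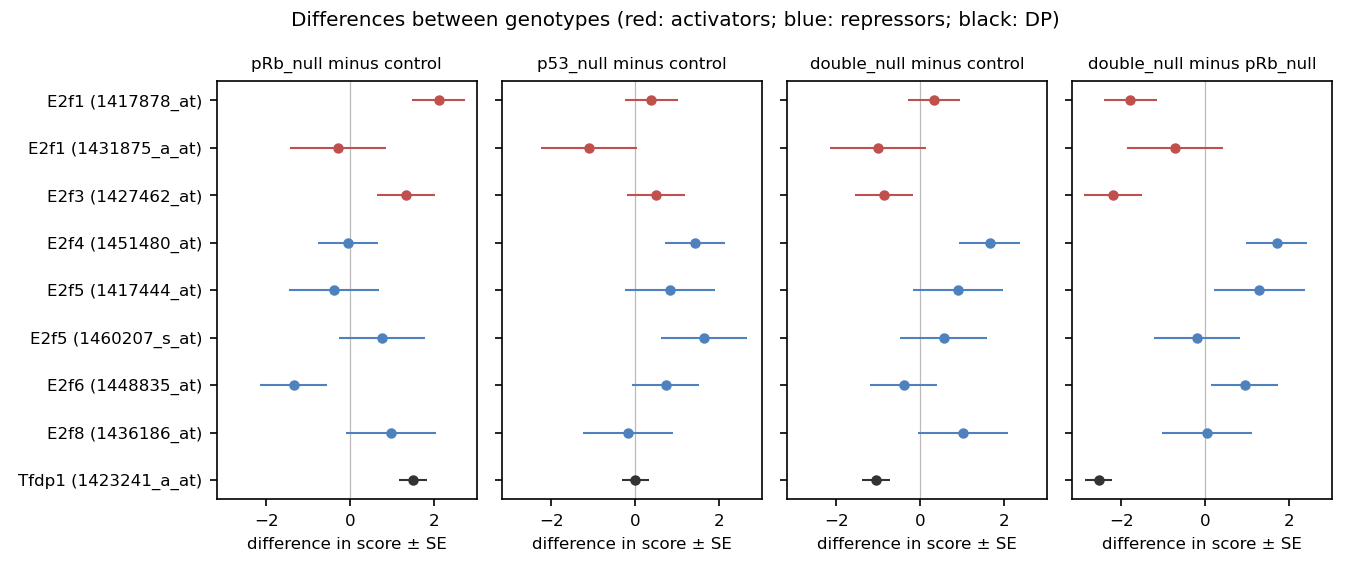
Difference in standardized score (x axis, in SD over the 8 arrays, with SE) for the 9 member probe sets (y axis) in 4 comparisons. Red points are activators, blue points repressors and the black point is DP. For Tfdp1 the difference is 1.49 in pRb_null against control and -2.54 in double_null against pRb_null, and E2f4 is at 1.65 in double_null against control.

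Counted over all 9 probe sets, an unadjusted limma p under 0.05 was reached by 2 in pRb_null against control (E2f1 1417878_at and Tfdp1, both higher), where 10.6% of all probe sets reached it, 6.44% higher and 4.21% lower. The count was 0 in p53_null against control, where 14.6% of all probe sets reached it, 7.38% higher and 7.23% lower. It was 1 in double_null against control, Tfdp1 scoring lower, beside 18.7% of all probe sets, 8.77% higher and 9.91% lower. It was also 1, again Tfdp1 scoring lower, in double_null against p53_null, beside 11.9%, 5.99% higher and 5.91% lower. In double_null against pRb_null it was 3, with E2f1 1417878_at, E2f3 and Tfdp1 all lower, where 7.71% of all probe sets were higher, 10.9% lower and 18.6% reached it in either direction. The averaged effect of pRb loss gave 0, beside 12.9%, 6.92% higher and 5.94% lower. The averaged effect of p53 loss gave 2, E2f4 higher and Tfdp1 lower, beside 22.1%, 9.71% higher and 12.4% lower. The interaction gave 1, Tfdp1 lower, beside 10.5%, 4.46% higher and 6.01% lower. In the comparison of any difference it was 1, Tfdp1, where 18.7% of all probe sets reached it. All of these comparisons come from the same 8 arrays and share 1 estimate of the spread, so the counts are not independent of each other.

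Arrays of 2 genotypes that do not overlap were common throughout. In pRb_null against control 5 of the 9 members did not overlap (4 higher, E2f1 1417878_at, E2f3, E2f8 and Tfdp1, and 1 lower, E2f6), beside 41.1% of all probe sets. The count was 2 for p53_null against control (52.7%) and 3 for double_null against control (51.2%). It was 4 for double_null against pRb_null (50.1%) and 3 for double_null against p53_null (49.5%). For averaged pRb loss, 0 members separated all 4 arrays with the loss from the other 4 (5.27%). As shares of 9, the members' counts were above that of all probe sets in pRb_null against control and below it in the other 4 pairs, with no test of either.

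In double_null against pRb_null all 3 activator probe sets scored lower (median -1.79) and 4 of 5 repressor probe sets scored higher (median 0.94), beside a median of -0.15 over all probe sets. For p53 loss averaged over both pRb states the medians were -0.85 for activators, with all 3 lower, and 0.84 for repressors, with 4 of 5 higher, beside -0.13. In pRb_null against control the activator median was 1.33 and the repressor median -0.04, beside 0.07. In p53_null against control, with pRb present, the activator and repressor medians were 0.39 and 0.82 (-0.15), and in double_null against control -0.87 and 0.90 (-0.01). They were -0.07 and 0.08 (0.03) in double_null against p53_null, -0.02 and -0.16 (0.10) for averaged pRb loss, and -2.18 and 0.22 (-0.04) for the interaction. These are descriptions of 3 probe sets of 2 activator genes and 5 probe sets of 4 repressor genes, with no test. E2f1 and E2f5 enter with 2 probe sets each, so the probe sets are not separate members. The activator median of double_null against control moved to -1.74 without the first control array and to 0.019 without the second, and that of pRb_null against control to 0.44 and 2.22. In p53_null against control it turned negative without the first control array (-0.39) or the first p53_null array (-0.24), and was 0.92 and 0.82 without the second of each. For averaged p53 loss it was -1.28 without the first control array, -0.44 without the second, -0.54 without the first pRb_null array and -0.39 without the second p53_null array. The repressor median for averaged p53 loss fell to 0.51 without the first pRb_null array or the second p53_null array, and that of double_null against control to 0.34 without the first double_null array. In double_null against pRb_null the repressor median was 0.43 without the first pRb_null array, 1.59 without the second and 0.50 without the second double_null array. In double_null against p53_null, for averaged pRb loss and for the repressors in pRb_null against control and in the interaction, the median changed sign on leaving out 1 array, so no direction is given for these. The same holds for the activators in p53_null against control and in double_null against control.

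Array by array, the mean activator score minus the mean repressor score was -0.61 and 1.20 on the control arrays, 2.06 and 0.64 on the pRb_null arrays, 0.07 and -1.41 on the p53_null arrays, and -0.87 and -1.08 on the double_null arrays. Both pRb_null arrays lay above all p53-deficient arrays, while the control arrays spread over most of that range. The mean of the repressors alone was between -0.64 and -0.18 on the 4 arrays with p53 and between 0.17 and 0.54 on the 4 without it. These ranges did not overlap, and E2f4, which separated in this way by itself, is among the probe sets averaged. Single probe sets separated by p53 state, in either direction, in 14% of all cases. No such share is given for means of several probe sets, so this separation was not tested. Of the repressor probe sets 4 had a positive averaged effect of p53 loss, and that of E2f8 was -0.06. The E2f8 scores of -0.81 and 1.95 on the double_null arrays both enter the mean.

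**Figure D4:**
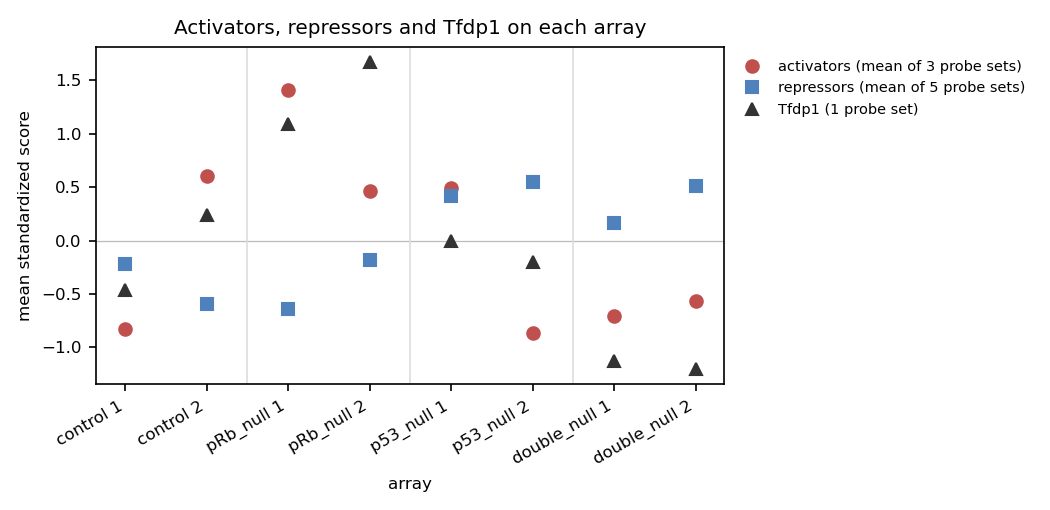
Mean standardized score (y axis) of the 3 activator and the 5 repressor probe sets, and the score of Tfdp1, on each of the 8 arrays (x axis). The repressor mean is below 0 on the 4 control and pRb_null arrays and at 0.17 to 0.54 on the p53_null and double_null arrays.

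Some pairs of member probe sets varied together over the 8 arrays, as a description in which all points share the same arrays. r was 0.883 for E2f3 with Tfdp1, 0.794 for E2f1 1417878_at with E2f3, and 0.758 for E2f1 1417878_at with Tfdp1. r was 0.857 for E2f4 with E2f5 1417444_at and -0.789 for E2f1 1417878_at with E2f6. These pairs were picked as the strongest of either sign. All other pairs had r between -0.591 and 0.485, so the members did not vary together as a family. Among 12387 other genes, the highest r over the 8 arrays was with Sbds (0.981) and Prxl2c (0.972) for E2f1 1417878_at, and Ing2 (0.975) and Snrpd3 (0.965) for E2f3. For Tfdp1 they were Slc39a11 (0.999) and Wdr12 (0.982), and for E2f4 Emcn (0.978) and Ccni (0.968). E2f5 1417444_at came closest to Ulk2 (0.942) and Cnot7 (0.937), E2f6 to Tmed7 (0.970) and Cxcl13 (0.952), and E2f8 to Uqcrq and Cd209c (both 0.976). The second probe sets came closest to Cd209d (0.966) and Ipo11 (0.948) for E2f1 and to Tbxa2r (0.949) and Ldlrad4 (0.940) for E2f5. These genes were picked as the highest of all those searched, so their r has no test.

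The pathway around the E2Fs was read from 5 lists, at 1 probe set per gene, and no gene of these lists was called in any comparison. Of 34 G1/S targets of E2F, 31 were measured, and their mean score was -0.61 and -0.35 on the control arrays, 0.58 and 0.44 on the pRb_null arrays, 0.36 and -0.17 on the p53_null arrays, and 0.18 and -0.43 on the double_null arrays. The pRb_null arrays were the highest and the double_null arrays overlapped with the control arrays. In pRb_null against control 28 of 31 scored higher, 5 of them at a nominal (unadjusted) p under 0.05 and 0 lower, where 5.29% of all genes were higher and 4.06% lower at that p. The list's median difference was 1.01, beside 0.04 over all genes. In double_null against pRb_null 1 was higher and 9 were lower (8.1% and 10.4% of all genes), with a median of -0.70 beside -0.12.

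For pRb loss averaged over both p53 states, 6 of the 31 G1/S targets were higher and 0 lower at a nominal p under 0.05 (6.88% and 5.92% of all genes), with a median of 0.50 beside 0.11. The smallest p belonged to Mcm6, a subunit of the replicative helicase, at 1.33 ± 0.19 (adjusted p = 0.166). Ccne1, the cyclin E1 that drives entry into S phase, followed at 1.60 ± 0.28 (adjusted p = 0.204). Mcm6 was low on both control arrays (-1.41 and -1.64) and higher on the other 6 (-0.16 to 0.98). The G1/S median of the interaction was -1.37, beside 0.02 over all genes, with 0 higher and 5 lower at that p (4.74% and 5.06%). In the other comparisons the G1/S targets had 4 higher and 1 lower in p53_null against control (6.38% and 7.26% of all genes), 8 and 2 in double_null against control (8.13% and 9.56%), 1 and 4 in double_null against p53_null (6.45% and 5.79%), and 5 and 6 for averaged p53 loss (9.23% and 12.2%).

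Of 18 G2/M genes bound by the MuvB complex, the later arm of the E2F-linked cell cycle programme, 17 were measured. In pRb_null against control 2 were higher and 1 lower at a nominal p under 0.05 (5.29% and 4.06% of all genes), with a median of 0.53 beside 0.04. In double_null against p53_null 0 were higher and 5 lower (6.45% and 5.79%), with a median of -1.09 beside 0.09. For averaged pRb loss 0 were higher and 3 lower (6.88% and 5.92%), with a median of -0.15 beside 0.11. The counts higher and lower were 2 and 0 in p53_null against control (6.38% and 7.26%), 1 and 4 in double_null against control (8.13% and 9.56%), 1 and 2 in double_null against pRb_null (8.1% and 10.4%), 1 and 2 for averaged p53 loss (9.23% and 12.2%), and 0 and 4 for the interaction (4.74% and 5.06%). Mki67, the proliferation marker Ki-67, scored 0.85 and 0.83 in pRb_null and -1.46 and -1.55 in double_null, a difference of -2.34 ± 0.25 with an adjusted p of 0.0727. Bub1b, a spindle checkpoint kinase, had an averaged effect of pRb loss of -1.60 ± 0.40.

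Of the pocket proteins and the DREAM core 8 of 10 genes were measured, and for averaged pRb loss 0 were higher and 1 lower at a nominal p under 0.05 (6.88% and 5.92% of all genes). That gene was Rb1, with scores of 1.20 and 0.80 on the control arrays, -0.71 and 0.44 on the pRb_null arrays, 0.50 and 0.22 on the p53_null arrays, and -0.55 and -1.90 on the double_null arrays. Its averaged effect of pRb loss was -1.36 ± 0.46 (adjusted p = 0.368). Where its probe set lies relative to the deleted part is not stated here, so it does not check the labels. Rbl1 and Rbl2, the genes of p107 and p130, differed from control in pRb_null by 1.05 ± 1.07 and -0.15 ± 0.88. Rbbp4 encodes a histone-binding subunit shared by DREAM and other complexes. It was the 1 list gene higher at a nominal p under 0.05 in pRb_null against control (5.29% of all genes), by 2.22 ± 0.61 (adjusted p = 0.376).

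Of 10 genes of E2F6 corepressor partners 8 were measured, with 0 higher and 2 lower for averaged pRb loss at a nominal p under 0.05 (6.88% and 5.92% of all genes). These were Max, the dimerization partner of MYC and MGA, at -1.80 ± 0.18 (adjusted p = 0.119), and Rnf2, a Polycomb ubiquitin ligase, at -1.40 ± 0.46 (adjusted p = 0.358). Max scored -0.96 and -1.09 in pRb_null and -0.77 and -0.78 in double_null, and between 0.45 and 1.41 on the 4 arrays with pRb. Such a separation by pRb state, in either direction, was seen for 5.27% of all probe sets, and Max was named for its small p. E2f6 itself differed by -1.23, while of the 8 partners 3 had positive and 5 negative differences (median -0.37 beside 0.11 over all genes). For averaged p53 loss all 8 partners had positive differences, median 0.43 beside -0.13, and 0 reached a nominal p under 0.05 (9.23% higher and 12.2% lower of all genes).

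Of 6 apoptosis genes known as E2F targets 4 were measured, and for averaged pRb loss 0 were higher and 0 lower at a nominal p under 0.05 (6.88% and 5.92% of all genes). For averaged p53 loss 1 was higher (9.23%), which was Apaf1, by 1.62 ± 0.34 (adjusted p = 0.114, limma). Apaf1, which builds the apoptosome, scored -0.77 and -1.76 in control and 0.01 and -0.72 in pRb_null. It scored 0.95 and 0.78 in p53_null and 1.02 and 0.49 in double_null. Against control the difference was 2.13 ± 0.48 in p53_null (adjusted p = 0.207) and 2.02 ± 0.48 in double_null (adjusted p = 0.159). double_null minus p53_null was -0.11 ± 0.48, and the averaged effect of pRb loss on Apaf1 was 0.40 ± 0.34. Trp73, a p53 relative induced by E2F1, had an averaged effect of pRb loss of 0.75 ± 0.65.

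For the other marker lists and averaged pRb loss, the counts higher and lower at a nominal p under 0.05 were 0 and 1 of 6 basal keratinocyte genes, 1 and 0 of 6 suprabasal genes, 0 and 1 of 5 erythroid genes, 0 and 0 of 7 lymphocyte genes and 4 and 0 of 4 adipocyte genes, where 6.88% of all genes were higher and 5.92% lower. The adipocyte mean was 0.55 and 0.72 in pRb_null, 1.04 and 0.61 in double_null, -0.03 and -0.07 in control, and -1.36 and -1.47 in p53_null. No gene of these 5 lists was called in any comparison.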

How the data were processed

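RNA from whole skin was measured on 8 oligonucleotide arrays of 22690 probe sets, 2 per genotype. RMA is the only tool in the submitters' processing notes, with no version. The values deposited by the authors are scores from -2.43 to 2.45, and each of the 22690 probe sets was checked over the 8 arrays, where its mean was 0 and its SD 1 within 1e-06. The sources used here do not state whether logarithms were taken first. Scores hold no level, so no filter on low values was applied, and the number of arrays limits the precision.

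Gene symbols came from the platform annotation: 20393 probe sets had 1 symbol, 691 several and 1606 none. Where 1 probe set per gene was needed, _at was taken before _a_at, _s_at and _x_at, then the lowest identifier. Differences were fitted with limma 3.58.1 (lmFit) in R 4.3.3 on all 8 arrays, 1 mean per genotype, with 4 residual degrees of freedom. The ordinary statistic was used, two-sided, because moderation ties probe sets whose variances standardization has fixed. A probe set was called at a Benjamini-Hochberg adjusted p under 0.05 over all probe sets of a comparison. The averaged effect of a loss is the mean of the 2 genotypes with it minus the mean of the 2 without. The interaction is double_null minus pRb_null minus p53_null plus control. The fit was tested on simulated data.

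The members, gene lists and tests were chosen with earlier results of these data known. Named genes were all member probe sets, per member the 2 other genes of highest Pearson r, the pocket proteins, and the 2 genes of each list with the smallest p for averaged pRb loss. Rbbp4's count in pRb_null and the values of Mki67 and Apaf1 in other comparisons were picked after being seen. The alternatives were the moderated statistic, 2 scalings of the arrays, a replicate block, other choices of probe sets and arrays, leaving out each array, 2 groups of 4 arrays, and a model without the interaction. List medians under both scalings were added after seeing the data. Trp53 was not analysed here. Promoter windows were read from RefSeq tables of GRCm38.p6. Tables and plots used Python 3.11.15, pandas 2.3.3 and matplotlib 3.10.9.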

Additional observations from a re-analysis of the deposited data

Results flagged for a closer look

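The effect of pRb loss on Tfdp1 (1423241_a_at) differed with p53 state: double_null minus p53_null was -1.06 and pRb_null minus control was 1.49, and the difference between these effects was -2.55 ± 0.47 in limma's ordinary fit, at an unadjusted p under 0.05. It did not pass after adjustment over all probe sets (adjusted p = 0.308), and 10.5% of all probe sets reached an unadjusted p under 0.05 in this comparison.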

How the results depend on the processing

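Under all alternatives the count of called members was 0 in each of the 9 tests (144 values), and 16 member differences of at least 2 SE kept their sign in all 257 recomputed values, with none called. Those differences were picked by their size in these data and recomputed from the same arrays, so their kept signs are no independent support. E2f1 1417878_at in pRb_null against control ranged from 1.58 to 2.64 on leaving out each array in turn, and the mean of both E2f1 probe sets differed by 0.91. Of 336 recomputed class medians 306 kept their sign, and 18 moved by more than the spread between replicates, all on leaving out 1 array. Leaving out each array in turn gave ranges in pRb_null against control of 0.44 to 2.22 (activators), -0.92 to 0.59 (repressors) and 1.14 to 1.84 (DP). In double_null against control they were -1.74 to 0.019 (activators), 0.34 to 1.02 (repressors) and -1.40 to -0.70 (DP), in p53_null against control -0.39 to 0.92 (activators) and -0.34 to 0.36 (DP), in double_null against p53_null -0.98 to 0.56 (activators) and in double_null against pRb_null 0.43 to 1.59 (repressors). For averaged p53 loss they were -1.28 to -0.39 (activators) and 0.51 to 1.16 (repressors), and for the interaction -0.61 to 0.87 (repressors) and -2.90 to -2.20 (DP).

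Calls over all probe sets depended on the setting: 192 in double_null against control (0 to 205 over the alternatives), 92 in double_null against pRb_null (0 to 97), 27 in p53_null against control (0 to 25), 8 in double_null against p53_null (0 to 17), 1 for averaged pRb loss (0 to 12), 285 for averaged p53 loss (0 to 260), and 0 in pRb_null against control (0 to 3) and for the interaction (0 to 1). The moderated statistic called 0 in each of these. Setting array medians to 0 moved the median over all probe sets from -0.15 to 0.02 in double_null against pRb_null, and either scaling moved the members' count of positive differences by at most 1. List medians changed sign under a scaling only near 0, for suprabasal genes in pRb_null against control (0.01 to -0.11), erythroid genes in p53_null against control (-0.04 to 0.06) and adipocyte genes in double_null against pRb_null (-0.09 to 0.08).

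With the replicate number as a block 0 members were called, and 0 probe sets were called in any of the 8 comparisons. Deviations of same-numbered arrays correlated at -0.163 to 0.197, the highest for p53_null with double_null. No label says what a replicate number marks, so pairing was not used. Whether some of these arrays shared a batch was not tested. A low-value filter could not be run on scores.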
